A study of Homo sapiens with 6 samples.

Results

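Naive and primed cells of the human embryonic stem cell line RH6 (Royan H6, derived from a human embryo) were compared gene by gene. The comparison held every gene that reached 1 CPM in at least 1 of the 3 RH6 RNA-seq libraries, which were 2 naive and 1 primed. CPM is the count of a gene scaled to the total count of its library, adjusted by the trimmed mean of M values (TMM). The genes held were 18189 of the 63677 listed. Of them, 14863 reached 1 CPM in all 3 libraries, 1438 were under it in both naive libraries and 1167 were under it in the primed library. NPY, with 15 counts and 1.0015 CPM in its highest library, lay just inside the limit, and RP11-529H22.1, with 14 counts and 0.98024 CPM, lay just outside it. A total of 423 genes peaked between 1 and 1.1 CPM and 395 between 0.9 and 1 CPM.

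The naive RH6 cells had been induced with a medium named 2a2iL, were kept in 2iL medium, passaged with trypsin and sampled at passage 10. The primed RH6 cells grew in a bFGF medium up to passage 20, and both states were cultured on inactivated mouse embryonic fibroblasts (MEF). State, medium and passage change together and cannot be told apart. A second line, RH5 (Royan H5), sequenced in the same design at passage 17 (2 naive libraries) and passage 16 (1 primed library), was used for the spread between duplicates and for the difference between lines. Nothing in the labels says that the duplicates came from separate cultures, and the p-values may therefore rest on technical spread alone.

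Primed human embryonic stem cells resemble the epiblast after implantation and are kept by FGF and activin/nodal signals, whereas the naive state is taken as a counterpart of the epiblast before implantation. Transcription factors such as KLF17, DPPA3 and TFCP2L1 mark the naive state, and ZIC2, OTX2 and DNMT3B are high in the primed state. Nodal, a ligand of the TGF-beta family, also patterns the primitive streak, from which mesoderm and endoderm arise, and its own antagonists LEFTY1 and LEFTY2 are among its targets.

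Counts per library were 14663982 and 14121645 for naive RH6 and 14534073 for primed RH6. All levels below are CPM scaled by trimmed mean of M values (TMM), given for the first naive, the second naive and the primed RH6 library in that order. Fold changes are naive minus primed on the log2 scale with their standard error (SE), from edgeR's quasi-likelihood test over all 6 libraries. With a single primed RH6 library, the spread came from the naive duplicates of both lines, which the primed library was taken to share. A gene was counted as changed at an adjusted p (Benjamini-Hochberg) under 0.05 and a change of at least 2-fold.

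Of the 18189 genes, 3621 changed, 1443 higher and 2178 lower in naive RH6. Over all 19317 genes fitted the share that changed was 19.1%, made up of 7.65% higher and 11.5% lower, and counts in gene lists below are read against these shares. The typical log2 difference between the naive duplicates was small beside the changes, with a median size of 0.186 over all members and 0.24 in the changed genes, whose median change was 1.92. A call already asks for a 2-fold change that is large for this spread, so the values in changed genes are a description only. Among them, the primed level lay between the naive levels in 0 genes. In 2 changed genes the duplicates differed by more than the change itself. Changes of at least 8-fold were found in 312 genes higher and 520 lower. DESeq2 called 1371 genes lower in place of 2178, and over all genes fitted it called 5.73% higher and 7.12% lower.

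**Figure D1:**
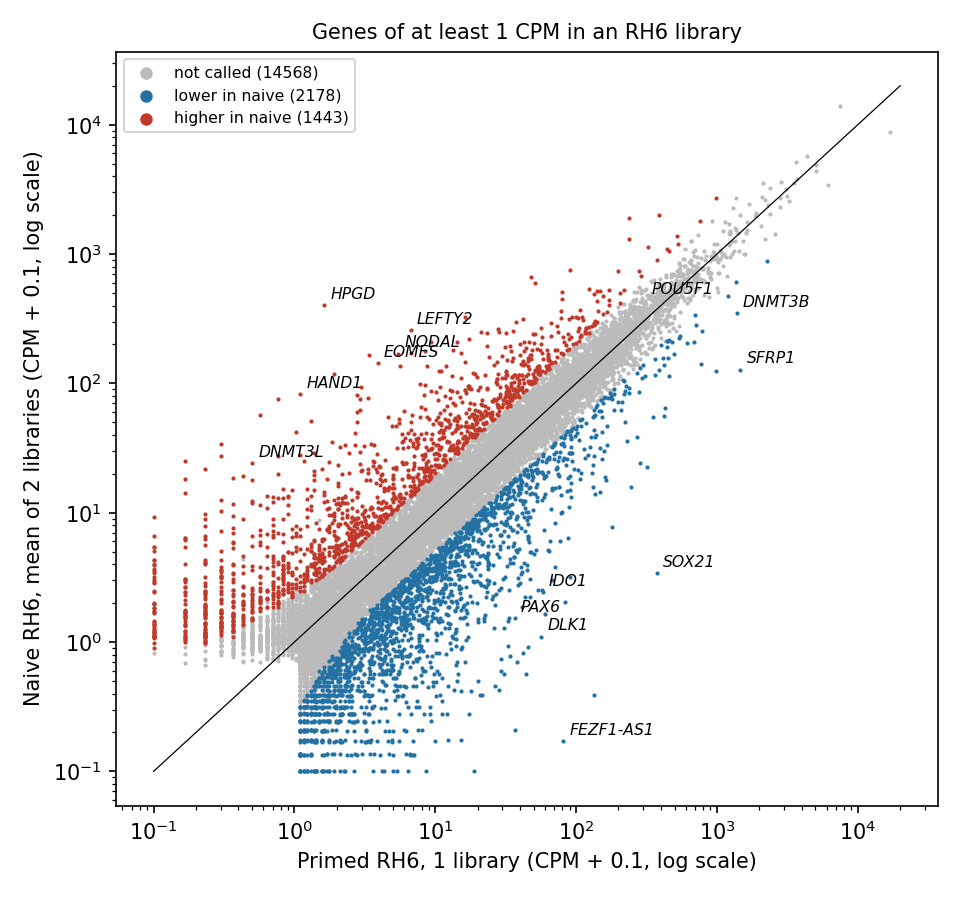
Level of each of the 18189 genes in primed RH6 (1 library, horizontal) and naive RH6 (mean of 2 libraries, vertical), both as CPM + 0.1 on log axes; the line marks equal levels. HPGD and LEFTY2 lie far above the line among the 1443 genes higher in naive cells, and SOX21 and FEZF1-AS1 far below it among the 2178 genes lower.

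The share of counts in long intergenic noncoding RNA was 1.54% and 1.87% in the naive libraries and 2.54% in the primed one, and MALAT1 alone took 0.711%, 0.996% and 1.74%. Of 773 lincRNA members, 137 were higher and 84 lower. Whether this difference in RNA makeup had a part in the calls was not tested.

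The labels were first set against known markers of either state. POU5F1, the core pluripotency factor, stood at 370, 503 and 309 CPM, and its log2 fold change of 0.50 ± 0.18 did not pass the test (edgeR adjusted p = 0.055). NANOG was higher in naive RH6, at 83.5, 74.0 and 31.3 CPM (log2 fold change 1.33 ± 0.14, edgeR adjusted p = 4.7e-05). SOX2 was lower, at 323, 358 and 700 CPM (-1.04 ± 0.12, edgeR adjusted p = 0.000107), close to the 2-fold limit: without the first naive library it came to -0.97. Both naive libraries lay on 1 side of the primed library for each of these 3 genes. Of 16 general pluripotency genes, 1 was higher and 4 were lower, with a median log2 fold change of -0.30, beside a median of -0.0042 over all members. TERF1, a telomere-binding protein abundant in pluripotent cells, fell from 769 CPM in the primed library to 130 and 152 CPM in the naive ones. UTF1, a chromatin factor of pluripotent cells, stood at 0.770, 0.588 and 6.34 CPM (log2 fold change -3.20 ± 0.35).

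Naive markers were divided. Of 26 genes listed, 17 reached 1 CPM, 9 of which were higher and 2 lower in naive RH6 (median 1.17). DNMT3L, a catalytically inactive partner of the de novo DNA methyltransferases, stood at 26.8, 21.4 and 0.401 CPM (log2 fold change 5.88 ± 0.36, edgeR adjusted p = 1.05e-06). NLRP7, a gene of the oocyte and early embryo, stood at 22.1, 21.0 and 1.47 CPM (3.87 ± 0.22). Both were at least 10 times their primed level in each naive library. The transcription factors KLF5 (63.1, 69.7 and 12 CPM) and TBX3 (52.4, 40.4 and 4.81 CPM) were higher too, and DPPA3, a factor that protects the maternal methylome, was low throughout, at 2.31, 4.33 and 0.734 CPM (2.16 ± 0.52, edgeR adjusted p = 0.00944).

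Other defining naive genes were at or near 0. KLF17 had no count in the first naive library or the primed one, and 0.147 CPM in the second naive library. In naive RH5 the gene stood at 0.918 and 1.34 CPM. DPPA5 was at 0 in every RH6 library. KLF4 stood at 10.8, 11.2 and 11.0 CPM, with a log2 fold change of 0.01 ± 0.18, and TFCP2L1 at 5.39, 4.19 and 6.08 CPM (-0.34 ± 0.24, edgeR adjusted p = 0.313). The placental alkaline phosphatase-like gene ALPPL2 was lower in naive RH6, at 3.22, 2.50 and 9.48 CPM (-1.72 ± 0.23), and so was the homeobox gene VENTX, at 4.34, 3.60 and 9.01 CPM. ALPPL2 has near-identical neighbours such as ALPP, and counting could split reads between them. The naive RH6 libraries thus carried some but not all of the markers in the list, and the name naive is used here as the label gives it. NR0B1, a nuclear receptor of the naive network, had 27 counts over both naive libraries and 1 in the primed one, which gives a ratio of 13.6 (95% counting interval 2.25 to 558).

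Of 20 primed-state genes, 10 were lower and 4 higher in naive RH6 (median -0.95). PTPRZ1, a receptor phosphatase, fell from 244 to 15.7 and 15.5 CPM (log2 fold change -3.97 ± 0.13), and SFRP1, a secreted Wnt antagonist, from 1467 to 132 and 123 CPM (-3.52 ± 0.12). OTX2, a homeobox factor of the epiblast after implantation and of the anterior neural plate, fell from 282 to 138 and 123 CPM. ZIC2 stood at 200 and 212 CPM in naive and 322 CPM in primed cells, a difference of less than 2-fold. The 4 members on the higher side were CDH2, VIM, NTS and PLA2G16, of which the neuropeptide gene NTS moved the most, at 130, 143 and 8.61 CPM (3.99 ± 0.16), followed by VIM, at 430, 435 and 140 CPM (1.63 ± 0.12). VIM encodes the intermediate filament vimentin.

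DNA methyltransferases moved in opposite directions. DNMT3B, the main de novo methyltransferase of primed cells, fell from 1380 CPM to 349 and 352 CPM (log2 fold change -1.98 ± 0.11, edgeR adjusted p = 4.75e-07), while its cofactor DNMT3L rose as given above. The other 12 genes of the 14 on DNA methylation did not meet both limits of a call, and the list median was 0.04. At an unadjusted p under 0.05, whatever the fold, edgeR gave 4 higher and 4 lower of the 14.

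Several ligands and antagonists of nodal signalling were far higher in naive RH6. The ligand NODAL stood at 155, 185 and 5.34 CPM (log2 fold change 4.99 ± 0.20, edgeR adjusted p = 9.09e-08), and the related ligand GDF3 at 86.2, 77.3 and 2.67 CPM (4.93 ± 0.21). The antagonist LEFTY2 stood at 254, 259 and 6.61 CPM (5.28 ± 0.16, edgeR adjusted p = 3.91e-08) and LEFTY1 at 32.4, 32.8 and 3.00 CPM (3.44 ± 0.19). For each of the 4 genes the naive duplicates lay close together and at least 10 times above the primed library. LEFTY1 and LEFTY2 are close paralogs, and counting could split reads between them. In bulk RNA, fewer cells expressing a gene and less RNA per cell cannot be told apart, here and below.

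Not all parts of the pathway rose. Of the 18 nodal and activin ligands and antagonists, 7 were higher and 5 lower (median 0.44). TDGF1, the coreceptor of nodal, stood at 920, 785 and 540 CPM (log2 fold change 0.66 ± 0.13), under the 2-fold limit, and the activin antagonist FST at 344, 399 and 287 CPM (0.37 ± 0.16, edgeR adjusted p = 0.0961). The activin subunit INHBB was lower, at 0.210, 0.514 and 5.07 CPM (-3.79 ± 0.48). CHRD, an antagonist of BMP that was kept on this list, was low throughout, at 0.210, 0.367 and 1.54 CPM. TGFB1, another ligand of the family, was higher, at 34.1, 36.9 and 14.4 CPM (1.30 ± 0.15). Among 20 receptors and SMAD transducers, 5 were higher and 0 lower (median 0.24), led by the type II receptor BMPR2 (192, 184 and 43.7 CPM, 2.11 ± 0.13) and the inhibitory SMAD7 (87.0, 76.9 and 31.8 CPM, 1.36 ± 0.14). DESeq2 and limma-voom also gave 0 lower, and 3 of the 20 were lower at an unadjusted p under 0.05 by edgeR, 3 by DESeq2 and 3 by limma-voom.

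Genes that respond to TGF-beta and nodal were on the higher side. Of 22, 9 were higher and 0 lower by edgeR (median 0.71); the other tools also gave 0 lower, and at an unadjusted p under 0.05 edgeR gave 2 lower, DESeq2 1 and limma-voom 2. EOMES, a T-box factor of the streak and endoderm, stood at 145, 142 and 3.81 CPM (5.24 ± 0.19, edgeR adjusted p = 8.64e-08), and GSC, the organizer homeobox gene, at 7.35, 8.66 and 0.601 CPM (3.72 ± 0.37). The naive duplicates of each differed by far less than either did from the primed library.

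**Figure D2:**
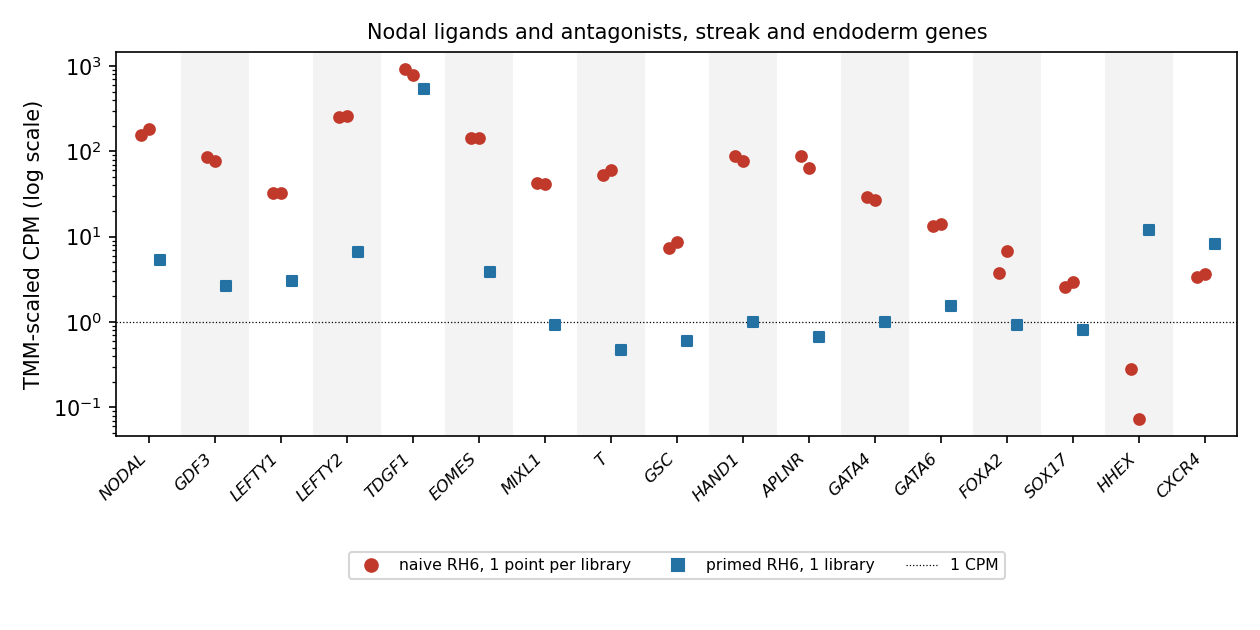
Level (TMM-scaled CPM, log axis) of nodal ligands and antagonists, streak and endoderm genes in each RH6 library; circles are the 2 naive libraries and squares the primed library. The naive circles of NODAL, EOMES and HAND1 lie above 70 CPM and the primed squares below 6 CPM, whereas HHEX and CXCR4 show the opposite order.

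Genes of the primitive streak and mesoderm were higher in naive RH6. Of 19 listed, 14 reached 1 CPM, and only 7 of these did so in the primed library, so a rise of the rest was in part set by the 1 CPM limit. Of the 14, 11 were higher and 2 lower by edgeR, and 11 and 0 by DESeq2; with TBX4, which had no primed count, at its lower bound, the median was 3.16. T, the gene of brachyury, stood at 52.6, 60.5 and 0.467 CPM (6.89 ± 0.27, edgeR adjusted p = 9.09e-08), MIXL1 at 42.2, 41.4 and 0.935 CPM (5.47 ± 0.26), and HAND1, a factor of extraembryonic mesoderm and trophoblast, at 88.3, 76.8 and 1.00 CPM (6.35 ± 0.24). APLNR, the apelin receptor of early mesoderm, stood at 87.8, 64.2 and 0.668 CPM (6.81 ± 0.35). Its ligand APLN was lower, with 0.0700, 0.220 and 1.4 CPM, and so was TBX6, at 0.700, 0.734 and 2.20 CPM. Receptor and ligand thus lay on opposite sides by edgeR, but APLN rests on 1, 3 and 21 counts and was not called by DESeq2.

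Endoderm genes gave 12 higher and 3 lower of 16 (median 1.60), and by DESeq2 8 higher and 3 lower; 10 of the 16 reached 1 CPM in the primed library. GATA4 stood at 29, 27.1 and 1.00 CPM (4.80 ± 0.29, edgeR adjusted p = 9.55e-07), GATA6 at 13.5, 13.9 and 1.54 CPM (3.15 ± 0.25), and FOXA2 at 3.78, 6.83 and 0.935 CPM (2.49 ± 0.47); all 3 are transcription factors of early endoderm. SOX17, which specifies endoderm, was low, at 2.59, 2.94 and 0.801 CPM (1.77 ± 0.50, edgeR adjusted p = 0.0204), and DESeq2 did not call it. APOA1, an apolipoprotein of visceral endoderm and liver, stood at 9.87, 11.2 and 1.14 CPM (3.21 ± 0.41). HHEX, the homeobox gene of anterior endoderm, went the other way, from 11.9 CPM in primed cells to 0.280 and 0.0734 CPM (-5.99 ± 0.42), as did FOXA3, from 10.9 to 3.92 and 2.94 CPM. Of 18 members of the trophoblast and amnion list, 10 were higher and 5 lower (median 1.19). CDX2, a trophectoderm and posterior factor, had 119 counts over the naive libraries and none in the primed one, hence at least 20-fold higher against a floor of 3 counts. TFAP2B and IGFBP3 led the lower side, IGFBP3 at 21.5, 18.6 and 108 CPM. KRT8, a keratin of simple epithelia, stood at 2024, 1996 and 390 CPM (2.36 ± 0.12).

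HOX genes, which mark position along the body axis, were at low levels in primed RH6. Of 30, 13 reached 1 CPM in some RH6 library and only 1 of them did in the primed one, so their count rests on the naive libraries alone and is given as a description. Of the 13, 11 were higher and 0 lower by edgeR. At an unadjusted p under 0.05 the number lower was also 0 by edgeR, DESeq2 and limma-voom. HOXB1, an early 3' gene of its cluster, stood at 6.65, 8.0 and 0.868 CPM (3.06 ± 0.45). HOXB6 and HOXB5 had no primed count and were at least 25.2-fold and 16.8-fold higher against the floor of 3 counts.

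Neural genes were lower. Of 26 genes of the neural plate, eye field and neurons, 24 reached 1 CPM, 20 of which were lower and 2 higher (median -3.96), beside 11.5% lower over all genes. The limit was reached by 23 genes in the primed library and by 11 in both naive libraries. The number lower was thus in part set by the 1 CPM limit. SOX21, a neural SOXB2 factor, fell from 372 CPM in primed RH6 to 3.43 and 3.16 CPM (log2 fold change -6.82 ± 0.21, edgeR adjusted p = 3.91e-08). SIX3, a gene of the anterior neural plate, fell from 43.7 to 0.560 and 0.367 CPM (-6.53 ± 0.35), PAX6, a master gene of eye development, from 36.6 to 1.26 and 1.62 CPM (-4.66 ± 0.22), and LHX5, a forebrain LIM homeobox gene, from 180 to 7.77 and 7.42 CPM (-4.57 ± 0.15). The duplicates again lay close together, and the primed library stood above both of them for each gene. RAX, the eye field gene, had 148 primed counts against 2 over both naive libraries, a ratio of 147 (95% counting interval 39.9 to 1220). Higher in naive cells were FABP7, at 14.1, 19.2 and 4.94 CPM (1.75 ± 0.25), and TUBB3, at 3.29, 3.23 and 0.868 CPM, a radial glia and a neuronal gene.

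Other genes far lower in naive RH6 included antisense transcripts and neuronal genes. SOX21-AS1 stood at 1.61, 1.47 and 59.8 CPM (log2 fold change -5.27 ± 0.23). FEZF1-AS1 had 1205 primed counts and 2 naive counts, a ratio of 1190 (95% counting interval 330 to 9860), which was the most counted gene among those with 3 or fewer counts in 1 state. As the strand setting of the counting is not given in the sources used here, reads of these antisense genes and of their partners cannot be told apart. NOVA2, a neuronal splicing factor, had 551 primed and 3 naive counts (ratio 364, 95% counting interval 124 to 1770). NOS1, the neuronal nitric oxide synthase, had 183 and 2 (181, interval 49.5 to 1510). LRRC4B, a synaptic adhesion gene, had 281 primed counts and none in naive RH6, and was thus at least 186-fold lower against the floor of 3 counts.

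Neural crest genes were split. All 12 listed reached 1 CPM, and 9 were lower and 3 higher (median -1.86). All 12 did so in the primed library and 9 in both naive libraries, so the number lower was in part set by that limit. TFAP2B fell from 11.7 to 0.840 and 0.588 CPM (-4.02 ± 0.26, edgeR adjusted p = 1.8e-06), PAX7 from 12.5 to 1.26 and 0.514 CPM (-3.80 ± 0.37), SOX10 from 10.1 to 1.12 and 0.955 CPM, PAX3 from 18.7 to 2.80 and 2.79 CPM and FOXD3 from 14.9 to 2.31 and 1.76 CPM. These 5 are transcription factors of crest specification. SNAI2, a repressor of epithelial genes, and the mesenchymal factor ETS1 were higher, SNAI2 at 57.2, 48.9 and 8.88 CPM (2.58 ± 0.18) and ETS1 at 116, 110 and 35.2 CPM.

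**Figure D3:**
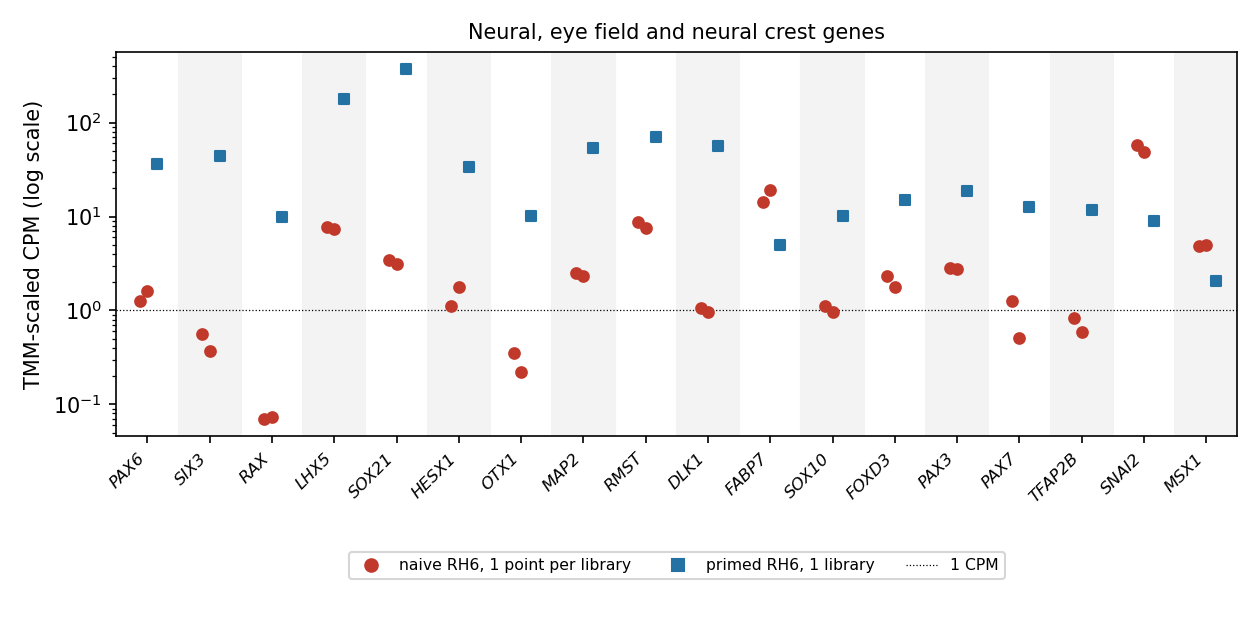
Level (TMM-scaled CPM, log axis) of neural, eye field and neural crest genes in each RH6 library; circles are the 2 naive libraries and squares the primed library. SOX21 drops from 372 CPM in the primed library to 3.43 and 3.16 CPM in the naive ones, and only FABP7, SNAI2 and MSX1 among the genes drawn lie higher in naive cells.

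Large changes were also found in genes not yet described. HPGD, the enzyme that degrades prostaglandins, had the largest rise among genes with at least 10 counts in every RH6 library, at 438.5, 365 and 1.54 CPM (8.02 ± 0.24, edgeR adjusted p = 3.91e-08). High fold changes were also found for ATP12A, a proton-potassium pump (50.3, 51.9 and 1.20 CPM), for RBM20, a splicing factor (27.4, 27.3 and 0.668 CPM) and for AIRE, the autoimmune regulator (16.9, 22.8 and 0.668 CPM). The ERVH48-1 gene, an endogenous retroviral envelope, stood at 99.0, 87.4 and 2.87 CPM (5.02 ± 0.19). AQP1, a water channel, had 601 naive counts and 2 primed ones, a ratio of 152 (95% counting interval 41.8 to 1260), and the homeobox gene PITX1 395 and 1 (199, interval 35.6 to 7900). SLC9A9 (270 and 2 counts), OC90 (181 and 2) and CSMD3 (175 and 1) completed the most counted genes of this kind.

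On the lower side stood CACNA1H, a T-type calcium channel gene (1.54, 2.35 and 82.7 CPM, log2 fold change -5.41 ± 0.21), MYH14, a nonmuscle myosin heavy chain (0.770, 0.881 and 32.9 CPM), MACC1 (2.73, 3.45 and 90.0 CPM), ARHGEF19 (1.05, 1.32 and 30.7 CPM), FBXO41 (1.19, 1.54 and 32.7 CPM) and TRPC4, a cation channel gene (2.17, 2.64 and 56.9 CPM). IDO1, the enzyme that breaks down tryptophan, fell from 57.9 to 2.03 and 2.64 CPM (-4.63 ± 0.17, edgeR adjusted p = 8.84e-08). In each of these 7 genes the primed library exceeded both naive libraries by more than 10-fold.

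Genes of the signalling pathways were read next. Of 20 Wnt feedback and target genes, 11 were higher and 1 lower (median 1.13). SP5, a direct Wnt target, stood at 121, 129 and 10.9 CPM (3.52 ± 0.15, edgeR adjusted p = 1.17e-07), LGR5, an R-spondin receptor, at 6.72, 4.92 and 0.467 CPM (3.62 ± 0.44), and CDX1 had 149 naive counts and 1 primed count (ratio 75.2, 95% counting interval 13.3 to 2990). AXIN2, the usual Wnt readout, stood at 112, 111 and 56.4 CPM, a log2 fold change of 0.99 ± 0.12 that misses the 2-fold limit by little. The receptor gene FZD5 was lower, at 222, 199 and 687 CPM (-1.71 ± 0.11).

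Of 16 genes of LIF receptors and the STAT3 response, 3 were higher and 0 lower by edgeR (median 0.51); DESeq2 gave 4 and 0, and at an unadjusted p under 0.05 edgeR gave 1 lower and DESeq2 0. The 3 were the receptor subunits IL6ST (273, 225 and 28.4 CPM, 3.13 ± 0.16) and LIFR, and IL6R (14.4, 16.7 and 4.81 CPM, 1.69 ± 0.22). SOCS3, the feedback inhibitor that STAT3 induces, stood at 21.7, 19.1 and 13.6 CPM (0.58 ± 0.16, edgeR adjusted p = 0.0157), under 2-fold, and STAT3 itself at 70.8, 68.0 and 77.4 CPM (-0.16 ± 0.12). The 3 members that passed by edgeR were thus receptor genes. The log2 fold change of LIFR fell to 0.95 with upper-quartile scaling factors and to 0.84 without the first naive RH6 library, under the 2-fold limit.

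Of 22 genes of FGF ligands and the ERK response, 8 were higher and 3 lower (median 0.62). The ligands FGF17 (25.5, 23.3 and 1.67 CPM, 3.86 ± 0.22) and FGF4 (6.37, 5.65 and 1.27 CPM, 2.24 ± 0.41) were higher. The 3 on the lower side were the immediate early genes EGR1, at 36.8, 34.2 and 230 CPM (-2.69 ± 0.13, edgeR adjusted p = 1.98e-07), and FOS, and the ERK phosphatase DUSP6, at 11.2, 11.2 and 30.4 CPM (-1.44 ± 0.15). The ligands FGF17 and FGF4 and the immediate early genes EGR1 and FOS thus lay on opposite sides. The 8 genes on the higher side also held members of the ERK response. The split was therefore not one of all ligands against all targets.

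BMP genes were evenly split, 6 higher and 6 lower of 18 (median -0.46). The pseudoreceptor BAMBI, which dampens BMP and activin signals, stood at 101, 86.8 and 10.7 CPM (3.13 ± 0.17), GATA3 at 13.4, 11.6 and 2.47 CPM (2.34 ± 0.25) and BMP4 at 36.7, 37.5 and 9.28 CPM (2.00 ± 0.16), whereas ID4, at 27.0, 24.9 and 153 CPM (-2.56 ± 0.12), and TFAP2A, at 11.2, 8.96 and 43.9 CPM (-2.12 ± 0.15), were lower. ID4 is an inhibitor of helix-loop-helix factors and TFAP2A a factor of surface ectoderm and crest. Of 22 genes of retinoic acid signalling and NR5A2, 8 were higher and 3 lower (median 0.27). NR5A2, an orphan nuclear receptor that can drive POU5F1, stood at 49.0, 48.0 and 9.48 CPM (2.35 ± 0.16, edgeR adjusted p = 1.97e-06). The retinoic acid receptor RARG was lower, at 17.7, 21.4 and 43.1 CPM (-1.14 ± 0.15), as was the carrier CRABP1, at 4.27, 5.14 and 50.2 CPM (-3.42 ± 0.15).

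Genes of sterol and fatty acid synthesis and of sterol uptake were higher together. Of 30, 14 were higher and 0 lower by edgeR (median 0.90). At an unadjusted p under 0.05, 26 were higher and 0 lower by edgeR, and 24 and 0 by DESeq2, and 29 of the 30 log2 fold changes were positive. MSMO1, a sterol methyl oxidase, stood at 144, 131 and 45.6 CPM (1.59 ± 0.13) and INSIG1, the sterol sensor that holds SREBP in the endoplasmic reticulum, at 104, 96.1 and 34.6 CPM (1.54 ± 0.14). For both genes the duplicates differed by less than 0.3 on the log2 scale and both lay more than 2-fold above the primed library. The regulators were not among those that changed: SREBF1 and SREBF2 had log2 fold changes of -0.07 ± 0.13 and 0.30 ± 0.12.

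For the genes of this list, the 250 bases before the start were read for the letters CCAAT on both strands, so ATTGG as well. CCAAT is the letter string that the factor NF-Y binds, a known partner of SREBP. Of the 30 genes, 23 had an entry in the RefSeq promoter table (GRCh38.p14), and 17 of these (73.9%) held the letters at least once, beside 37.0% of all 27305 genes in the table. The 23 were taken whether or not they changed, and the 27305 whether or not they were expressed here. The shares therefore describe the list, and a link to the change in RH6 was not tested. The stretches of 3 changed genes that have an entry are shown, in the direction of the gene, with the matches in capitals. Not every entry was open to printing, and the 3 had the largest rise among those that were. A changed gene with an entry and a larger rise may therefore be missing.
MSMO1: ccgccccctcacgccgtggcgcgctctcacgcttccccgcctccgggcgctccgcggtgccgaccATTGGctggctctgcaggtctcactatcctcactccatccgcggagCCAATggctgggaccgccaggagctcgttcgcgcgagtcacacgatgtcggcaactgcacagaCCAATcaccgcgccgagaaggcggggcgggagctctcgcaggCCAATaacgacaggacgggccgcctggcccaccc
INSIG1: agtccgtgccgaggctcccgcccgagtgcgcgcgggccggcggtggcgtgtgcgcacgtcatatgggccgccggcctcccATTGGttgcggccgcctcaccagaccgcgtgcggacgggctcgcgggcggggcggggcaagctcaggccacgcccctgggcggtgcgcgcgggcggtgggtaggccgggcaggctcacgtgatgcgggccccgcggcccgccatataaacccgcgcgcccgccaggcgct
CYP51A1: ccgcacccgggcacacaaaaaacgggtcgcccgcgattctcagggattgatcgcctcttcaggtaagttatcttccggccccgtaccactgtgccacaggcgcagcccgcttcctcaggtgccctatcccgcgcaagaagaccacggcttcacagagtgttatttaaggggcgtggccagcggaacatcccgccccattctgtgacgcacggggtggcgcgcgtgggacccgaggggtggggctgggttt
The MSMO1 stretch (chr4:165327419-165327668, plus strand) held 4 matches, the INSIG1 stretch (chr7:155297628-155297877, plus strand) 1 match, and the CYP51A1 stretch (chr7:92134478-92134727, minus strand) 0. A match is a string of letters and not a shown binding site, and its absence says only that the letters are not in this window. CYP51A1, a sterol demethylase, was near the detection limit, at 1.82, 1.69 and 0.601 CPM (1.53 ± 0.52, edgeR adjusted p = 0.0426), and lost its call under several of the alternative settings.

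Of 27 glycolysis and hypoxia genes, 5 were higher and 1 lower (median 0.37). At an unadjusted p under 0.05, whatever the fold, edgeR gave 16 higher and 2 lower and DESeq2 14 and 2, and the summed level was 7808 and 7474 CPM in naive and 5069 CPM in primed RH6. PDK1, the kinase that shuts pyruvate out of the mitochondrion, stood at 125, 108 and 31.6 CPM (1.88 ± 0.14) and the glucose transporter SLC2A3 at 1457, 1307 and 523 CPM (1.4 ± 0.12), while GAPDH stood at 1522, 1359 and 1246 CPM (0.21 ± 0.13). The lower gene was EGLN3, a prolyl hydroxylase (41.0, 38.0 and 83.4 CPM). Of 34 nuclear genes of the respiratory chain, 0 changed by edgeR and 0 by DESeq2 (median 0.20). At an unadjusted p under 0.05, whatever the fold, edgeR gave 11 higher and 2 lower and DESeq2 7 and 0. Of 31 cell cycle genes 4 were higher and 0 lower by edgeR as by DESeq2 (median 0.07; 3 lower at an unadjusted p under 0.05 by edgeR and 0 by DESeq2). Among the 4 were the inhibitor CDKN2B, at 14.7, 15.5 and 0.734 CPM (4.34 ± 0.33), and its neighbour CDKN2A, with 65 naive counts and 1 primed count. SLC7A5, an amino acid transporter, stood at 758, 750 and 90.7 CPM (3.05 ± 0.13). It was 1 of 3 genes higher among 19 of amino acid stress, of which edgeR and DESeq2 gave 0 lower, also at an unadjusted p under 0.05. Antigen presentation was on the lower side, with 6 of 20 genes lower and 2 higher (median -0.57).

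Fibroblast markers were mostly higher. Of 25 fibroblast markers, 23 reached 1 CPM, of which 14 were higher and 2 lower (median 1.79). COL3A1, a fibrillar collagen, stood at 160, 113 and 5.54 CPM (4.62 ± 0.26), MMP2, a matrix metalloproteinase, at 250, 241 and 23 CPM (3.41 ± 0.15) and COL1A1 at 366, 275 and 104 CPM (1.63 ± 0.18). The summed level of the list was 3734 and 3196 CPM in naive and 930 CPM in primed RH6, and 1979 and 1950 against 1518 CPM in RH5. Of its markers, DCN was near 0 in every RH6 library and FAP had no primed count. The cells grew on mouse fibroblasts, how reads of mouse origin were treated is not given in the sources used here, and the part of feeder RNA in these values was not tested. Among 22 genes of the epithelial to mesenchymal switch 9 were higher and 4 lower (median 0.10). CLDN4, a tight junction gene, fell from 6.81 to 0.980 and 0.220 CPM. Of 22 laminins and integrins, 5 were higher and 4 lower (median 0.02), ITGB5 at 254, 231 and 50.7 CPM (2.26 ± 0.13) and ITGA4, the alpha 4 integrin, at 0.210, 0.147 and 8.28 CPM (-5.46 ± 0.41). KDR, the VEGF receptor, stood at 250, 253 and 74.7 CPM, while 14 of the 18 endothelial and blood genes did not reach 1 CPM. The germ cell gene DAZL had 61 primed counts and none in naive RH6, at least 40.3-fold lower against the floor of 3 counts.

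Smaller groups completed the lists. Of 19 p53 targets, 4 were higher and 0 lower by edgeR as by DESeq2 (median 0.52), and at an unadjusted p under 0.05 both tools gave 0 lower. SPATA18, a gene of mitochondrial quality control, stood at 8.89, 10.5 and 2.94 CPM (1.72 ± 0.28), and CDKN1A, the cyclin-dependent kinase inhibitor p21, at 23.2, 20 and 8.15 CPM (1.41 ± 0.18). ATF3, a stress-induced factor, was the next gene on the amino acid list, at 86.2, 84.1 and 31.5 CPM (1.43 ± 0.13), and NDRG1 followed PDK1 among hypoxia genes, at 7.49, 8.89 and 2.74 CPM. Within antigen presentation and interferon response the 2 higher genes were the close paralogs IFITM1, at 35.2, 64.5 and 16.4 CPM, and IFITM3, at 50, 64.3 and 22.8 CPM, between which counting could split reads. PSMB8, a subunit of the immunoproteasome, fell from 5.07 to 0.350 and 0.514 CPM (-3.53 ± 0.43). The duplicates lay on 1 side of the primed library for each gene here, though those of IFITM1 were 0.87 apart on the log2 scale.

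Of 12 genes derived from endogenous retroviruses or driven by them, 9 reached 1 CPM, 4 of which were higher and 0 lower by edgeR as by DESeq2 (median 1.09), with 0 lower at an unadjusted p under 0.05 by either. LINC-ROR, a noncoding RNA of pluripotent cells, stood at 32.8, 34.1 and 3.60 CPM (3.21 ± 0.21) beside ERVH48-1 above. Cleavage-stage genes, which mark the embryo before the blastocyst, were mostly silent. Only 3 of 18 reached 1 CPM, and of these SLC34A2, a phosphate transporter, was lower, at 0.770, 1.03 and 2.14 CPM, by edgeR and not by DESeq2. Of 15 germ cell genes, 7 reached 1 CPM, 2 of which were higher and 4 lower (median -1.51). All 7 did so in the primed library and 4 in both naive libraries, so the number lower was in part set by that limit. The 2 higher, PRDM1 (55.6, 58.45 and 18.2 CPM, 1.65 ± 0.15) and TFAP2C (132, 119 and 55.6 CPM, 1.17 ± 0.13), are factors that also act in other lineages, and PIWIL2, of the germline piRNA pathway, had 30 primed and 2 naive counts (ratio 29.7, 95% counting interval 7.54 to 257).

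Some lists held a second gene on either side. In the endothelial and blood list RUNX1, a blood factor, stood at 10.4, 7.42 and 2.74 CPM and VWF, the von Willebrand factor, at 0.630, 0.808 and 10.1 CPM (-3.80 ± 0.33). In the fibroblast list the mesenchymal factors PRRX1 (3.57, 2.79 and 9.95 CPM) and TWIST2 (0.0700, 0.588 and 1.94 CPM) were lower, against the 14 that were higher. TWIST2 was not called by DESeq2. The claudin gene CLDN7 fell from 23.9 to 8.89 and 6.90 CPM, and DHRS3, a retinaldehyde reductase, from 22.0 to 8.82 and 8.96 CPM. ITGB4, the beta 4 integrin, fell from 2.00 to 0.210 and 0.294 CPM, while ITGB3 had 30 naive and 2 primed counts (ratio 7.57, 95% counting interval 1.92 to 65.4). TTR, transthyretin, an endoderm gene, had 48 naive and 2 primed counts (ratio 12.1, interval 3.18 to 103).

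Imprinted genes, expressed from 1 parental copy, showed single large changes. Of 25, 4 were higher and 3 lower (median -0.08). H19, a noncoding RNA expressed from the maternal copy, stood at 234, 182 and 9.21 CPM (4.50 ± 0.20, edgeR adjusted p = 1.61e-07), and PEG3, expressed from the paternal copy, at 16.8, 18.7 and 0.401 CPM (5.44 ± 0.29, edgeR adjusted p = 4.65e-07). DLK1, a paternally expressed gene that was also on the neural list, fell from 56.6 to 1.05 and 0.955 CPM (-5.80 ± 0.24), and ZDBF2 from 447 to 164 and 150 CPM (-1.50 ± 0.11). IGF2, the growth factor that neighbours H19, stood at 36.6, 60.7 and 19.3 CPM (1.33 ± 0.36, edgeR adjusted p = 0.0152) and lost its call by DESeq2 and without the second naive library. No allele was read.

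**Figure D4:**
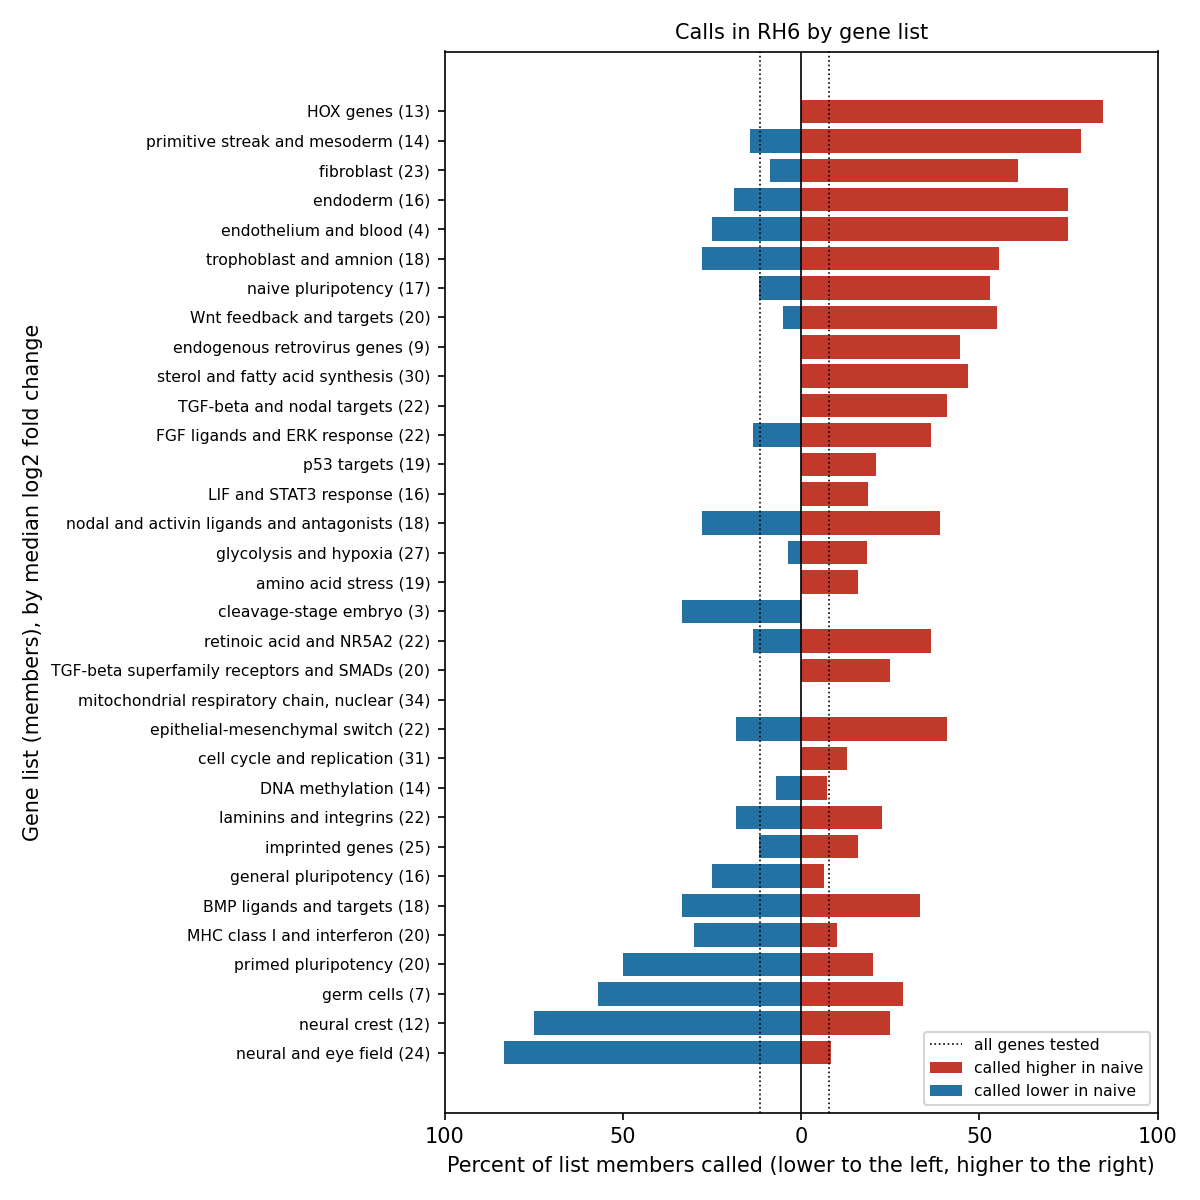
Share of the members of each of 33 gene lists counted as changed in RH6, higher in naive to the right and lower to the left, sorted by median log2 fold change; the number of members stands in brackets and dotted lines mark 7.65% and 11.5%, the shares over all 19317 genes tested. HOX and streak genes lie at the top, neural and neural crest genes at the bottom, and the respiratory chain list has no bar.

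RH6 and RH5 were then compared by the test of the difference between their state effects. In RH5, 3670 of the 19317 genes fitted changed, 9.01% higher and 9.99% lower. The 1810 genes that changed the same way in both lines made up 50% of the RH6 and 49.3% of the RH5 calls, and 106 went opposite ways. The state effect differed between lines in 1593 of the 18189 genes, beside 8.52% over all genes tested (3.81% more positive and 4.71% more negative in RH6), 718 being more positive and 875 more negative. Of the genes that changed in RH6, 879 (24.3%) also differed between lines. DESeq2 called the difference in 5.15% of the genes fitted, 2.37% more positive and 2.77% more negative.

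Endoderm genes differed in 1 direction. The difference was called in 11 of 16, each time more positive in RH6, and 5 genes had opposite calls; the RH5 list held 2 higher and 9 lower (median -2.08). SOX17 stood at 0.848 and 0.298 CPM in naive and 7.5 CPM in primed RH5, a log2 fold change of -3.67 ± 0.43 beside 1.77 in RH6 (difference 5.45 ± 0.66, edgeR adjusted p = 0.000575). APOA1 stood at 0.353, 1.04 and 5.26 CPM (difference 6.12 ± 0.59, edgeR adjusted p = 0.000129) and LINC00261, a noncoding neighbour of FOXA2, at 1.27, 2.01 and 51.3 CPM in RH5 and 8.75, 8.37 and 3.07 CPM in RH6 (6.44 ± 0.34, edgeR adjusted p = 4.64e-06). The primed libraries of the lines stood apart here: the summed level of the endoderm list was 136 CPM in primed RH6 and 417 CPM in primed RH5, while the 4 naive libraries lay between 287 and 344 CPM. With 1 primed library a line, a difference between lines and a difference between these 2 libraries cannot be told apart.

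Nodal targets shared this pattern in part. LEFTY2 stood at 119, 118 and 58.9 CPM in RH5, with a log2 fold change of 1.01 ± 0.12 against 5.28 in RH6 (difference 4.27 ± 0.19, edgeR adjusted p = 1.57e-06), and EOMES at 42.7, 37.4 and 18.7 CPM (difference 4.13 ± 0.23, edgeR adjusted p = 5.66e-06). NODAL itself was higher in both lines, at 117, 107 and 12 CPM in RH5 (difference 1.76 ± 0.25, edgeR adjusted p = 0.00139). NR5A2 stood at 22.0, 21.6 and 16 CPM in RH5 and NANOG at 36.6, 35.4 and 34.5 CPM, and neither changed in that line (differences 1.91 ± 0.21 and 1.27 ± 0.19, edgeR adjusted p = 0.00033 and 0.0021).

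Crest and neural genes differed in the other direction. The difference was called in 10 of 12 crest genes, 9 of them more negative in RH6, and in 11 of 24 neural genes, 10 of them more negative. TFAP2B stood at 21.1, 21.6 and 3.60 CPM in RH5, a rise of 2.56 ± 0.23 against the fall in RH6 (difference -6.58 ± 0.35, edgeR adjusted p = 4.64e-06), and MAP2, the neuronal microtubule protein, at 38.3, 37.2 and 16 CPM in RH5 but 2.52, 2.35 and 53.4 CPM in RH6 (-5.69 ± 0.23, edgeR adjusted p = 1.21e-06). Here the naive libraries of the lines also differed from each other. BMP genes differed in 13 of 18, 10 of them more negative in RH6. The dorsal and hindbrain factor LMX1B (RH5 42.5, 38.5 and 4.76 CPM, RH6 2.03, 1.91 and 10.8 CPM) and the immediate early gene EGR3 (RH5 230, 267 and 24.0 CPM, RH6 13.3, 13.1 and 52.8 CPM) had opposite calls as well.

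Further genes took opposite courses. CST1, a secreted cystatin, stood at 51.4, 48.2 and 2.67 CPM in RH6 but 10.2, 7.23 and 33.2 CPM in RH5 (difference 6.14), and CLDN11, a tight junction gene, at 19, 16.9 and 1.27 CPM against 1.20, 1.49 and 3.60 CPM (difference 5.23). LHX1, a LIM homeobox gene of the streak list, stood at 4.06, 4.70 and 0.734 CPM in RH6 and 3.25, 2.46 and 13.1 CPM in RH5 (difference 4.75). Others changed in RH5 and not in RH6. ATP8A2, a phospholipid flippase, stood at 47.5, 49.1 and 35.2 CPM in RH6 and 0.989, 1.19 and 23.6 CPM in RH5. NKX6-1, a homeobox gene of ventral neural tube and pancreas, stood at 0.700, 0.734 and 1.27 CPM against 11.4, 13.1 and 0.360 CPM, and C11orf96 at 1.75, 1.32 and 1.94 CPM against 27.4, 32.4 and 0.937 CPM.

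PEG3 took opposite courses in the lines. It stood at 18.4 and 19.2 CPM in naive and 190 CPM in primed RH5, so naive levels were alike in both lines while the primed libraries stood at 0.401 and 190 CPM (difference 8.77 ± 0.30, edgeR adjusted p = 6.49e-07). By contrast, DNA methylation genes gave no called difference by edgeR in any of 14 genes or by DESeq2; at an unadjusted p under 0.05 edgeR gave 2 more positive and 3 more negative in RH6, and DESeq2 2 and 1. In the sterol and fatty acid list 2 of 30 genes differed between lines. DNMT3L was higher in both, with 26.3, 22.3 and 0.577 CPM in RH5.

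**Figure D5:**
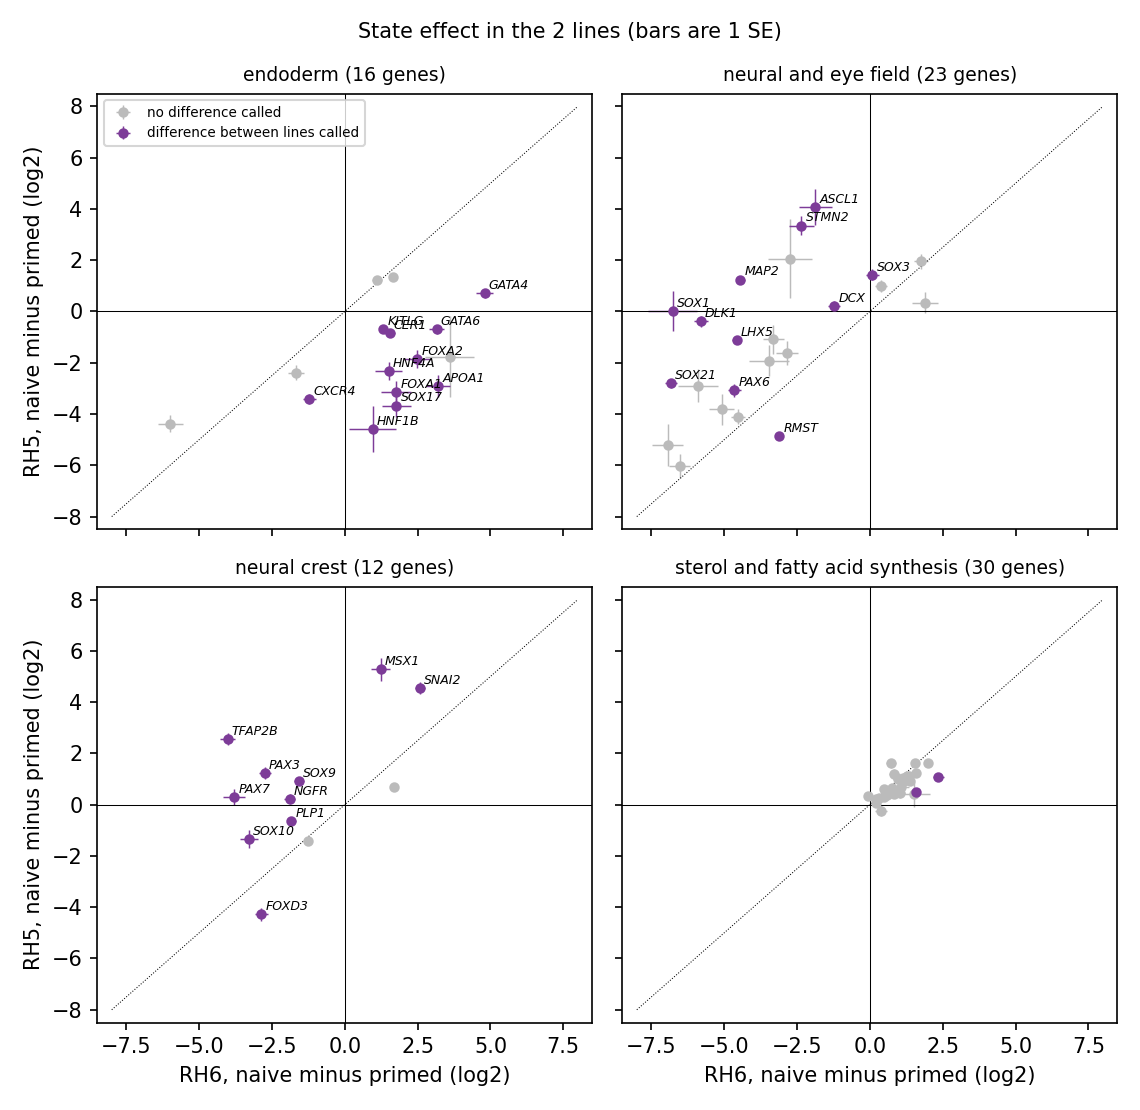
State effect (naive minus primed, log2, bars are 1 SE) in RH6 (horizontal) and RH5 (vertical) for genes of 4 lists with a count in both states of both lines; purple points are genes whose effect differed between lines by edgeR's test, and the dotted line marks equal effects. Many endoderm genes lie to the lower right (HHEX, FOXA3 and CXCR4 are lower in both lines, and GATA4 lies to the upper right). Of the crest genes, TFAP2B, PAX3 and PAX7 lie to the upper left, SOX10 and FOXD3 to the lower left and SNAI2 to the upper right. Genes of the sterol and fatty acid list lie close to the dotted line.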

How the data were processed

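RNA-seq reads were counted per gene in 6 libraries, 3 of them RH6. The authors deposited 1 table of unnormalized counts per Ensembl gene. Tools named in the submitters' processing notes are STAR 2.4.0a, featureCounts 1.4.5-p1, FastQC, Subread and DESeq2, with builds GRCh37.p5 and hg19. The sources used here do not give the annotation or the strand setting. The labels give polyA RNA as the molecule and a stranded total RNA kit. No column of the table was left unused.

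From the counts, CPM was computed with TMM factors between 0.9643 and 1.0308, and 19317 genes of at least 1 CPM in at least 1 of 6 libraries were fitted with edgeR 4.0.16 (R 4.3.3) as 4 group means with 2 residual degrees of freedom; the common coefficient of variation was 0.0966. A filter on 2 libraries would drop genes present in primed RH6 alone. The naive RH6 duplicates differed by a chi-square of 9.22 per gene, against 70.9 and 63.2 from primed RH6, and were entered as separate libraries. These values do not show whether the duplicates came from separate cultures. Alternatives were other scalings, filters, DESeq2 1.42.0, limma-voom 3.58.1, RH6 alone and leaving out each library. On simulated counts of 18027 genes, 88% of 2-fold and 100% of 4-fold changes reached an adjusted p under 0.05 in the right direction. The 2-fold limit of the calls was not applied there, so these shares are not the recovery of calls. Changes were placed only in genes above a minimum mean level, and all libraries were given the same coefficient of variation.

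Gene lists and the genes compared were chosen with earlier results of these data known. Genes were named by rule: the 12 highest and 12 lowest fold changes among changed genes with at least 10 counts in each RH6 library and 10 CPM in 1; per direction the 5 most counted with 0 to 3 counts in the other state; the top 2 per direction of each list, with 12 fixed genes; the 8 highest and 8 lowest differences between lines; and the 5 with the largest duplicate difference for their change among changed genes of at least 10 CPM. Every other gene in the text was named after its values were seen: ALPP, AXIN2, BMP4, CDH2, COL1A1, CXCR4, CYP51A1, DCN, DPPA3, DPPA5, FAP, FOS, FOXA2, FOXD3, FST, GAPDH, GATA6, GSC, IGF2, INSIG1, KLF5, KRT8, LIFR, MALAT1, MSMO1, MSX1, OTX2, PAX3, PLA2G16, SIX3, SLC2A3, SOCS3, SOX10, SOX17, SP5, SREBF1, SREBF2, STAT3, TBX3, TDGF1, TFCP2L1, TGFB1, ZIC2 and the families in the closing section. Some genes that the rule takes are not reported here. Intervals and floors cover counting error only.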

Additional observations from a re-analysis of the deposited data

Results flagged for a closer look

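For the genes below the state effect in RH6 differed from that in RH5 by the test of the difference itself (edgeR, adjusted p under 0.05 and at least 2-fold), among the genes named in the report, and RSPO2, with over 3 counts in each state of each line. Values are the RH6 minus the RH5 log2 fold change. With 1 primed library a line, a difference between lines and a difference between the primed libraries cannot be told apart.

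Genes called higher in naive RH6 and lower in naive RH5 were the imprinted gene PEG3 (8.77), LINC00261 (6.44), CST1 (6.14), APOA1 (6.12), SOX17 (5.45), CLDN11 (5.23), LHX1 (4.75), LGR5 (4.62), FOXA2 (4.34) and KDR (3.01). Genes called lower in RH6 and higher in RH5 were TFAP2B (-6.58), MAP2 (-5.69), LMX1B (-5.54), EGR3 (-5.37), CRABP1 (-5.18), SLC34A2 (-4.49), TFAP2A (-4.24) and PAX3 (-3.97). The former held endoderm genes and the latter neural and crest factors.

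Among genes higher in both lines, the rise was larger in RH6 for LEFTY2 (4.27), EOMES (4.13), RBM20 (3.46), CDKN2B (3.09), GDF3 (2.51), T (2.47), NTS (2.46), NODAL (1.76), HPGD (1.68), LEFTY1 (1.65), SLC7A5 (1.62), BAMBI (1.42), KLF5 (1.4) and TBX3 (1.31). The rise was also larger in RH6 for SLC40A1 (1.67), KCNE3 (1.47) and COL6A3 (1.43), of the families in the closing section. It was smaller in RH6 for MSX1 (-4.05), RSPO2 (-2.65), IGF2 (-2.24) and SNAI2 (-1.98). Among genes lower in both, the fall was larger in RH6 for SOX21 (-4.01), MYH14 (-4.01), LHX5 (-3.46), SOX21-AS1 (-3.30), SOX10 (-1.93), FBXO41 (-1.80) and PAX6 (-1.58), and smaller for CXCR4 (2.20), FOXD3 (1.42) and OTX2 (1.29).

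Of genes called in RH6 and not in RH5, those higher in naive RH6 were FGF17 (4.10), GATA4 (4.09), GATA6 (3.84), GSC (3.61), COL1A1 (1.98), NR5A2 (1.91), GATA3 (1.86), SLC2A3 (1.73), PDK1 (1.67), BMPR2 (1.42), NANOG (1.27), LIFR (1.21) and PLA2G16 (1.07). SLC39A8 (3.28), a solute carrier of the closing section, was also higher in naive RH6 and not called in RH5. Those lower in naive RH6 were DLK1 (-5.42), PAX7 (-4.08), APLN (-3.32), EGR1 (-3.14), CLDN4 (-2.84), ID4 (-2.09), ALPPL2 (-1.99), ZDBF2 (-1.17) and FOS (-1.15). Genes called in RH5 and not in RH6 were ATP8A2 (4.88), TDGF1 (1.68) and ZIC2 (1.18), lower in naive RH5, and NKX6-1 (-5.86), C11orf96 (-5.31), SOCS3 (-1.15) and FST (-1.04), higher there.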

How the results depend on the processing

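No paired analysis was possible because each line had a single primed library and the primed libraries carry no replicate number. The comparison could not be made without primed RH6. Among the named genes and the counts of changed genes, 0 changed direction under the alternatives run. DESeq2 called 1371 genes lower in RH6 in place of 2178, and a difference between lines in 979 genes in place of 1593, 457 of them more positive and 522 more negative in RH6 (718 and 875 by edgeR). It kept 68.2% of the RH6 calls, while the other settings kept between 87.0% and 99.5%. Leaving out each library other than primed RH6 in turn gave 3472 to 3837 changed genes, 1390 to 1483 higher and 2082 to 2354 lower, and 1736 to 1980 called differences. Upper-quartile factors shifted the median of all members by -0.11 and put 34.3% of the calls on the higher side (39.9% with TMM), and list medians near 0 (DNA methylation, the epithelial to mesenchymal switch, cell cycle, laminins and integrins, imprinted genes) changed sign under at least 1 setting. Of 180 genes tested under the alternatives, 24 were not called alike under all of them. AXIN2 gained a call under 2 settings, at a log2 fold change of 1.00. Without the first naive RH6 library the call was lost for CYP51A1 (1.47), LIFR (0.84), RSPO2 (0.68), SLC34A2 (-1.05), SOX2 (-0.97), TBX6 (-1.58) and TWIST2 (-1.71). Without the second it was lost for ADAMTS2 (-0.86), CYP51A1 (1.59), FOS (-0.98), IGF2 (0.93), ITGB3 (2.58), MTRNR2L12 (0.46), NEURL1B (-0.79), NR0B1 (3.23), TBX6 (-1.64) and TOMM7 (0.62). DESeq2 alone did not call APLN, CHRD, DAZL, MSX1, SOX17, TTR, TUBB3 and VENTX. The difference between lines for HOXB1 was not called by limma-voom. Genes near 1 CPM rest on about 15 counts, and recovery by expression level was not measured. The genes taken numbered 21472 at 0.5 CPM, 15494 at 2 CPM and 18113 without TMM.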

Other observations

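Gene families were read after their values were seen, so their counts are a description. Of 59 potassium channel genes (symbols KCN), 26 were lower and 5 higher in naive RH6 (median log2 fold change -0.85), beside 11.5% lower and 7.65% higher over all genes tested. In RH5, 26 were lower and 8 higher (median -1.1). KCNG3 stood at 7.42 and 5.21 CPM in naive and 88.0 CPM in primed RH6 (-3.79 ± 0.17), KCNA1 at 1.12, 0.881 and 16.9 CPM (-4.06 ± 0.31) and KCNN3 at 0.910, 1.4 and 14.0 CPM (-3.60 ± 0.33). On the higher side KCNG1 stood at 31.4, 33.5 and 6.88 CPM (2.24 ± 0.18) and KCNE3, a regulatory subunit, at 11.6, 9.84 and 1.67 CPM (2.67 ± 0.30). Both naive libraries lay on 1 side of the primed library for each of the channels named.

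Collagens were split, with 12 of 42 higher and 8 lower, beside 7.65% higher and 11.5% lower over all genes tested. COL5A1, a minor fibrillar collagen, stood at 273, 252.5 and 27.8 CPM (3.24 ± 0.14), COL2A1, the collagen of cartilage, at 119, 120.4 and 18.6 CPM (2.69 ± 0.15) and COL6A3 at 57.5, 43.0 and 6.68 CPM, whereas COL14A1 fell from 28.4 to 2.73 and 2.13 CPM (-3.54 ± 0.24) and COL16A1 from 12.2 to 1.47 and 2.06 CPM. Among 258 solute carriers 29 were higher and 40 lower, to be read against the same shares. SLC39A8, a zinc and manganese importer, stood at 89.1, 87.8 and 12.6 CPM (2.82 ± 0.15) and SLC40A1, the iron exporter ferroportin, at 12.2, 10.3 and 1.20 CPM (3.22 ± 0.28). Cytosolic ribosomal protein genes gave 1 higher, RPL22L1, and 0 lower of 81, and replication-dependent histone genes 1 higher, HIST1H2BB, and 0 lower of 59.

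Among changed genes of at least 10 CPM in an RH6 library, the naive duplicates differed most, for the size of the change, in 5 genes. MTRNR2L12 stood at 111, 226 and 80.7 CPM, TOMM7 at 8.4, 15.9 and 5.47 CPM, RSPO2 at 10.2, 5.58 and 3.47 CPM, ADAMTS2 at 7.0, 3.60 and 12.7 CPM and NEURL1B at 7.42, 4.19 and 12.8 CPM. MTRNR2L12 is a near copy of mitochondrial ribosomal RNA, so its reads are uncertain. By chromosome, median log2 fold changes of the autosomes lay between -0.02 and 0.19.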
